A study of Rattus norvegicus with 6 samples.

Results

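The cyclin-dependent kinase Cdk11b and its relatives that act on transcription were followed in neonatal rat ventricular cardiomyocytes (NRVCs). The set was named as 10 genes, the kinases Cdk11b, Cdk7, Cdk8, Cdk9, Cdk12 and Cdk13 and the cyclins Ccnl1, Ccnl2, Ccnt1 and Ccnh. The set was chosen by the C3a difference of a Cdk11b probe, which was known when it was named, so the values of Cdk11b are given as a description without a test. Of the 10 genes, 7 were measured, by 13 probes, out of 16575 named genes with values on the arrays. All 13 were kept, since each was well above background in the whole of at least 1 group of 3 arrays. No probe was matched to Cdk7, Ccnl2 or Ccnt1, which were not analysed here.

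NRVCs are primary heart muscle cells, prepared here from the pooled ventricles of 8 to 10 Sprague-Dawley rats at 1 to 2 days of age. They were cultured in serum-free medium without C3a (control, 3 samples) or with recombinant C3a at 0.5 µg/ml for 12 h (C3a, 3 samples), and the methods name a short starvation in low serum before stimulation. C3a is the peptide released from complement factor C3 on cleavage, and the comparison asks which genes respond to it in heart muscle cells. The samples were labelled with Cy3 and read on 1-colour Agilent arrays, 1 array each. The records give a replicate number from 1 to 3 in each group but do not say that the samples came from separate preparations. The p-values therefore measure only the spread between these samples, which may be technical.

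Transcriptional cyclin-dependent kinases each pair with a cyclin and phosphorylate RNA polymerase II or the factors around it. Cdk7 with cyclin H is part of TFIIH and acts when transcription starts, Cdk8 with cyclin C sits on Mediator, and Cdk9 with cyclin T forms P-TEFb, which releases paused polymerase. Cdk12 and Cdk13 with cyclin K act during elongation, and Cdk11 with an L-type cyclin acts on splicing factors and RNA processing. In heart muscle, P-TEFb is known for its part in hypertrophic growth.

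Levels are given as the log2 signal relative to the 75th percentile of all probes on the same array. A level of 0 is therefore the signal that 75% of the probes stayed under, and a difference of 1 is a doubling of the signal. Since cRNA from whole cultures was measured, fewer cells of a type and less RNA per cell cannot be told apart. The 6 arrays shared 1 slide, where controls and C3a samples occupied opposite sides, and treatment and position therefore cannot be told apart. The median local background was 47 intensity units on control replicate 1 and 23 or 24 on the others, and 38.6% of probes were well above background there, against 53.7% to 57.3% elsewhere. Of 15 cardiomyocyte markers, 14 had a probe and all 14 were well above background on all 6 arrays. Of 9 macrophage markers, 2 were well above background on all 6 arrays and Cd163, Mrc1 and C1qa on none. The summed linear level of the cardiomyocyte markers, each relative to the 75th percentile, was 6154 to 7930 in controls and 7613 to 8648 with C3a. The ranges were 98.8 to 112 and 97.7 to 114 for 10 fibroblast markers, of which 7 were well above background on all 6 arrays. They were 33.4 to 46.0 and 42.3 to 53.6 for 7 endothelial markers, of which 5 were well above background on all 6 arrays, and 5.82 to 7.36 and 5.77 to 6.28 for the macrophage markers. The ranges of the 2 groups overlapped in each list. Within pairs of equal replicate number, 9 of the 14 cardiomyocyte markers were higher with C3a in all 3 pairs and 2 were lower in all 3, against 25.2% and 13.7% of the kept probes. Of the kept markers of the other cell types, 0 of 10 fibroblast, 2 of 5 endothelial and 1 of 4 macrophage genes were higher in all 3 pairs, and 1, 1 and 0 were lower. The part of other cell types in the results below was not tested.

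Cdk11b was read by 3 probes that went in opposite directions with C3a. The third probe was higher on all 3 C3a arrays, while the first and the second had lower means. All 3 probes name the same Cdk11b transcript, each has 1 spot per array, and each was well above background on all 6 arrays without an outlier flag. Cdk11b encodes a kinase that binds L-type cyclins and is also needed in mitosis.

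The first Cdk11b probe (A_44_P745393) has the highest mean of the 3 over all arrays and stands for the gene in the counts below. Its level was 1.43, 1.47 and 1.33 in control replicates 1 to 3 and 1.21, 1.34 and 1.06 in C3a replicates 1 to 3. The groups overlapped, since C3a replicate 2 lay above control replicate 3, but the C3a array was lower in each pair of equal replicate number. The means were 1.41 ± 0.07 and 1.20 ± 0.14 (SD, n = 3 each), a difference of -0.21 (standard error 0.11).

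The second Cdk11b probe (A_44_P1369168) read 1.23, 1.53 and 1.09 without C3a and 0.97, 1.25 and 0.56 with C3a. The groups overlapped here too, and the C3a array was again lower in each of the 3 pairs, by 0.25, 0.28 and 0.53. The means were 1.28 ± 0.23 and 0.93 ± 0.35 (SD, n = 3 each), and the difference was -0.35 (standard error 0.20).

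The third Cdk11b probe (A_44_P1364869) read 0.42, 0.28 and 0.43 without C3a and 1.11, 1.08 and 0.99 with C3a. Every C3a array lay above every control, as they did for 1884 of the kept probes (8.04%). This is a description, since the difference of a Cdk11b probe chose the set. The means were 0.38 ± 0.08 and 1.06 ± 0.06 (SD, n = 3 each), a difference of 0.68 (standard error 0.10), or 1.60-fold. Its pairs differed by 0.68, 0.80 and 0.56.

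**Figure D1:**
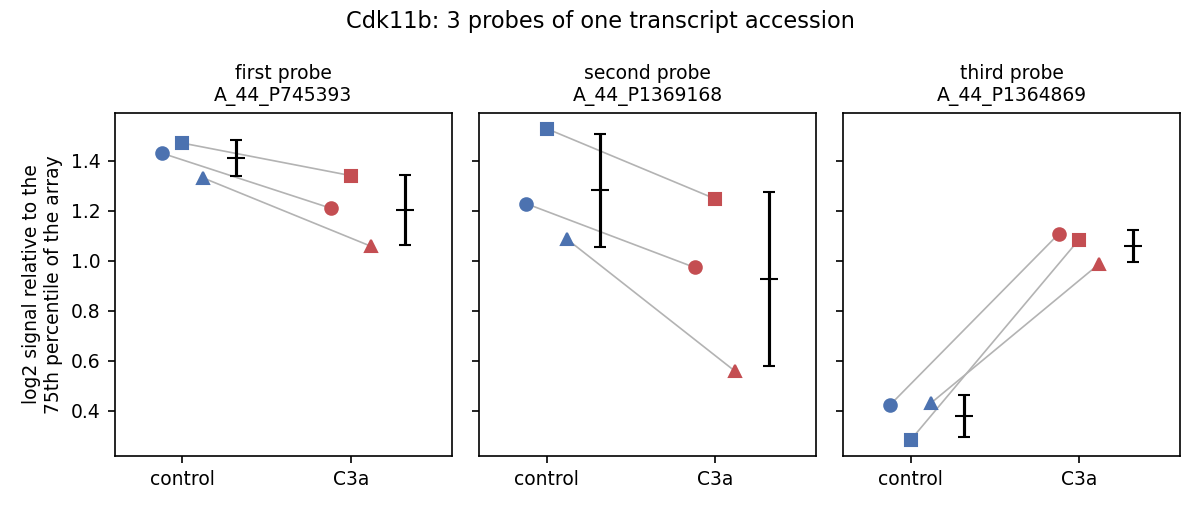
Level of Cdk11b in NRVCs by its 3 probes (y axis, log2 signal relative to each array's 75th percentile). Circles, squares and triangles are replicates 1, 2 and 3, grey lines join equal replicate numbers, and the black bars show mean ± SD (n = 3). The third probe lies between 0.28 and 0.43 in controls and between 0.99 and 1.11 with C3a, while the other 2 probes go down along every line.

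On the linear scale the third probe gave 366, 447 and 363 intensity units without C3a and 496, 610 and 411 with C3a, before any scaling between arrays. The groups overlapped on this scale. C3a replicate 3 gave 411 and control replicate 2 gave 447, and these were the arrays with the lowest and the highest 75th percentile, at 207 and 367 intensity units. The first probe fell from 735, 1018 and 679 to 533, 729 and 431 intensity units in the pairs of replicates 1, 2 and 3. The 75th percentile of the arrays fell in these pairs too, from 273, 367 and 269 to 230, 288 and 207 intensity units. Part of the fall in unscaled signal was thus shared by the whole array.

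The distance between 2 probes on one array does not change when a whole array is shifted by a constant, as 5 of the 7 scalings tried here do. The third probe minus the first was -1.01, -1.19 and -0.90 in controls and -0.10, -0.26 and -0.07 with C3a, with no overlap. This distance changed by 0.89, or 1.85-fold in the ratio of the probes. The third probe minus the second changed by 1.03, or 2.05-fold, also with no overlap, while the second minus the first changed by -0.15 and overlapped. The set was chosen by the difference of a Cdk11b probe, so these within-array values are a description without a test. They do not tell which of the probes moved. The mean of the 3 probes differed by 0.039 between the groups, so a single value for Cdk11b depends on the probe taken.

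The spread between probes is the largest minus the smallest difference with C3a among the kept probes of one accession. It was 1.03 for Cdk11b. The difference that chose the set is part of this value, so it was not ranked against other transcripts.

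The GRCr8 gene table lists Cdk11b with 10 transcript accessions, 1 of them curated and 9 predicted, the neighbours Slc35e2b and Mmp23, and an overlap with Rpl27al10. Whether a probe reads other transcripts or an overlapping gene was not tested. By likeness over the 6 arrays (Pearson correlation, as a description), 4 of the 5 genes closest to the first probe were Prkag1 (r = 0.998), Spg7 (0.998), Tars2 (0.995) and Spryd4 (0.994) among 10389 genes. The means of these 4 were lower with C3a, with differences between -0.55 and -0.25. For the third probe, looked at after its values were seen, they were Polr2d (0.995), Tbl1x (0.994), Prm2 (0.991), Hsp90ab1 (0.986) and LOC103694361 (0.981), with differences between 0.14 and 0.70. The points share the treatment, the slide and the scaling, and no gene is on both lists of 5. A gene this close to a probe must differ in the same direction as the probe. The signs and the lack of a shared gene were therefore fixed in advance.

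Among the other 6 members, limma called 0 at an adjusted p under 0.05, where it called 0 of all 23438 kept probes (0%). At an unadjusted p under 0.05 it also called 0 of the 6, against 1364 of the kept probes (5.82%). The methods' t-test on the same values likewise called 0 of the 6, against 1108 of the kept probes (4.73%). Adjusted p from limma lay between 0.743 and 0.993. With the replicate block, the fit that pairs equal replicate numbers, Cdk8 and Cdk9 passed the unadjusted threshold, 2 of 6 members against 3198 of the kept probes (13.6%), and 0 passed after adjustment. Leaving out control replicate 1 took Cdk8 and leaving out C3a replicate 2 took Cdk9 past the unadjusted threshold. The count of 1364 became 2139 without control replicate 3, and when C3a replicate 1 or C3a replicate 3 was left out it became 895 or 709. No direction of change was established for any of the 6 by the adjusted test.

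Cdk8, the kinase of the Mediator kinase module, read -0.65, -0.29 and -0.55 without C3a and -0.77, -0.72 and -0.83 with C3a. All 3 C3a arrays lay below all 3 controls, as they did for 1045 of the kept probes (4.46%), although control replicate 1 was only 0.12 above its C3a partner. The means were -0.50 ± 0.19 and -0.77 ± 0.05 (SD, n = 3 each), and the difference was -0.27, or 1.21-fold lower (standard error 0.12, 95% interval -0.56 to 0.0074, adjusted p = 0.743 from limma). The unadjusted p from limma was 0.0548, and 0.0391 with the replicate block, where the adjusted p was 0.341. The difference was below 0 in 21 of 21 alternatives, from -0.72 with spike-in scaling to -0.17 without control replicate 2. Filters and error models leave the difference unchanged, so part of that count was fixed in advance.

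Cdk9, the kinase of P-TEFb, read -2.48, -1.79 and -2.50 without C3a and -2.86, -2.32 and -2.96 with C3a. The groups overlapped through C3a replicate 2, but each pair differed by a similar amount, -0.39, -0.53 and -0.46. The difference of the means was -0.46 (standard error 0.24, 95% interval -1.04 to 0.12, adjusted p = 0.743 from limma). The unadjusted p from limma was 0.101, and with the replicate block it was 0.00286, with an adjusted p of 0.221. The probe was not well above background on control replicate 1, and without that array the difference was -0.57. Without control replicate 2, the highest array, it was -0.23, and after normexp background correction it was -0.073.

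Cdk12 and Cdk13 are close relatives that act with cyclin K. Cdk12 read -2.83, -1.87 and -1.98 without C3a and -2.72, -2.43 and -1.68 with C3a. The groups overlapped over nearly their whole range, and on control replicate 1 the probe was not well above background. The difference was -0.05 (standard error 0.34, 95% interval -0.84 to 0.74, adjusted p = 0.968 from limma), and its sign turned when single arrays were left out, from -0.35 without control replicate 1 to 0.17 without C3a replicate 1. A dimmer Cdk12 probe, which names another accession and was well above background on 2 of 3 controls, differed by 0.44 (standard error 0.35). That value rests on 1 pair, since its pairs differed by 1.24, 0.027 and 0.071.

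Cdk13 read 0.0025, 0.13 and -0.073 without C3a and -0.084, -0.0037 and 0.13 with C3a, with full overlap. The difference was -0.0040 (standard error 0.11, 95% interval -0.25 to 0.25, adjusted p = 0.993 from limma). A further Cdk13 probe of the same accession differed by 0.0028. The spread between the 2 probes of Cdk13 was thus 0.0068, and it was 0.30 for the 3 probes of Ccnl1.

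The cyclins with a probe were Ccnl1 and Ccnh. Ccnl1, a partner of Cdk11, read 1.02, 1.11 and 1.11 without C3a and 0.86, 0.93 and 1.15 with C3a by its brightest probe. C3a replicate 3 was the highest of all 6 arrays while the other C3a arrays were the lowest. The difference was -0.10 (standard error 0.11, 95% interval -0.36 to 0.16, adjusted p = 0.790 from limma). The other Ccnl1 probes differed by 0.18 and -0.12, with adjusted p of 0.757 and 0.788 from limma, so the 3 probes of Ccnl1 also had both signs.

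Ccnh, the cyclin of Cdk7, read 2.80, 2.84 and 2.77 without C3a and 2.89, 2.78 and 2.69 with C3a. The groups overlapped and the largest and smallest values were both C3a arrays. The difference was -0.016 (standard error 0.096, 95% interval -0.24 to 0.21, adjusted p = 0.967 from limma).

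**Figure D2:**
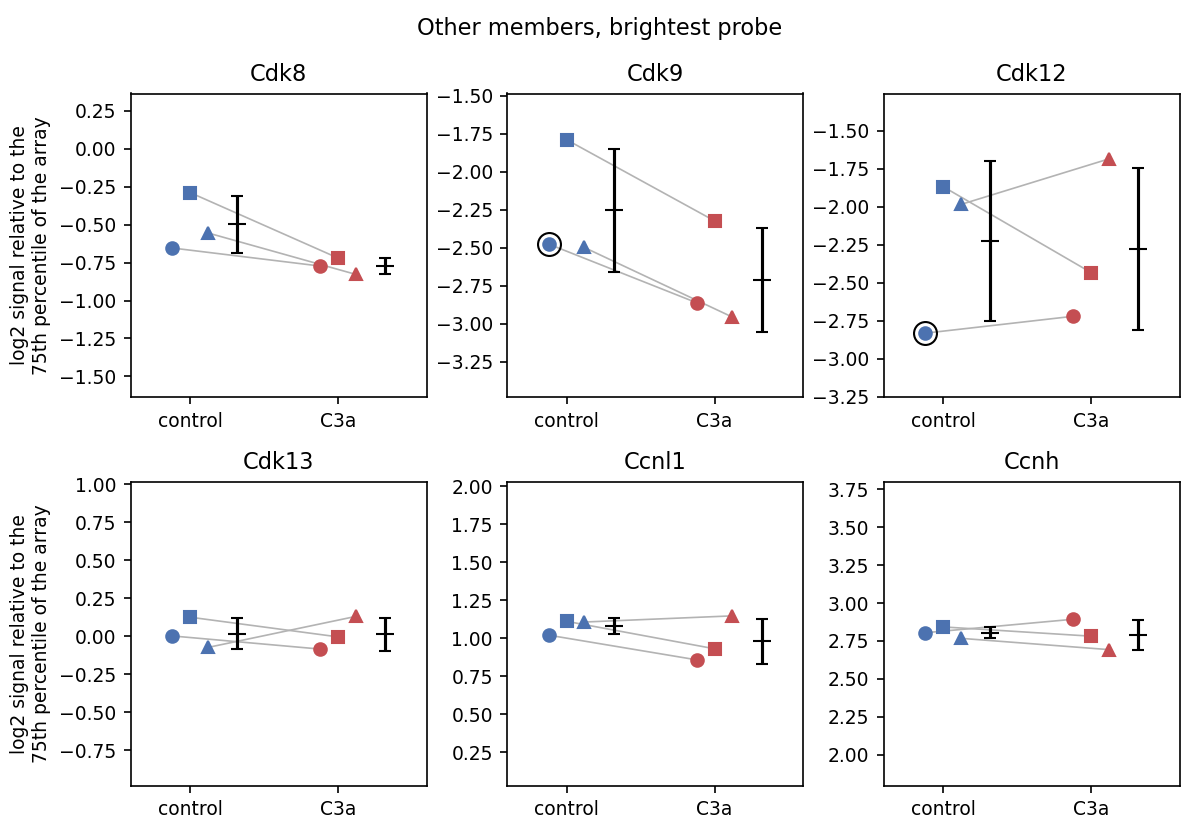
Levels of the other 6 members in NRVCs by their brightest probe (y axes, log2 signal relative to each array's 75th percentile, each spanning the same number of log2 units), with symbols as for Cdk11b and bars showing mean ± SD (n = 3). A black ring marks an array on which the probe was not well above background, control replicate 1 for Cdk9 and Cdk12. The 3 C3a arrays lie below the controls for Cdk8, and the groups overlap for the others.

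Taken by their brightest probe, the 6 members besides Cdk11b had differences from -0.46 to -0.0040 with a median of -0.076, all below 0, but with scaling to the median of each array Cdk13 and Ccnh lay above 0, and with quantile normalization Cdk13 did. Of all 10390 named genes with a kept brightest probe, 4091 lay below 0, and their median was 0.036. The C3a array was lower in all 3 pairs for 2 of the 6, Cdk8 and Cdk9, against 3208 of the kept probes (13.7%) and 1571 of the 10390 genes. It was higher in all 3 pairs for 0 of the 6, against 5918 of the kept probes (25.2%) and 2446 of the genes. The C3a group lay above the controls without overlap for 0 of the 6, against 1884 of the kept probes (8.04%).

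The direct partners of these kinases were taken as 10 genes, of which 9 had a kept probe and Polr2a had none. By limma 0 of 9 passed the adjusted threshold and 0 the unadjusted one, and their median difference was 0.016. Of the 9, 5 lay above 0 and 4 below. The cyclins differed by 0.016 for Ccnt2, a cyclin of Cdk9, 0.060 for Ccnk, the cyclin of Cdk12 and Cdk13, and -0.077 for Ccnc, the cyclin of Cdk8. A dimmer Ccnc probe differed by -0.52 (standard error 0.35, adjusted p = 0.743 from limma). That probe was well above background on 2 of 3 controls, and its pairs differed by -0.12, -1.03 and -0.40. Mnat1, the assembly factor of the Cdk7 complex, differed by 0.080. The related kinases differed by -0.13 for Cdk19, the paralog of Cdk8, and by 0.14 for Cdk10.

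P-TEFb is held inactive by Hexim1 in a complex with Larp7 and Mepce around a small nuclear RNA. Hexim1 read 3.50, 3.50 and 3.54 without C3a and 3.64, 3.57 and 3.55 with C3a. All 3 C3a arrays lay above the controls, which held for 1 of the 9 partners and for 1884 of the kept probes (8.04%). The difference was 0.076 (adjusted p = 0.801 from limma), and the other Hexim1 probe differed by 0.23 with overlap (adjusted p = 0.743 from limma). Larp7 differed by -0.078 and Mepce by -0.18, with adjusted p of 0.812 and 0.745 from limma. The C3a array was lower in each pair for both of them and higher in each pair for Hexim1. Of the 9 partners, 4 were higher in all 3 pairs and 2 were lower, against 25.2% and 13.7% of the kept probes.

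**Figure D3:**
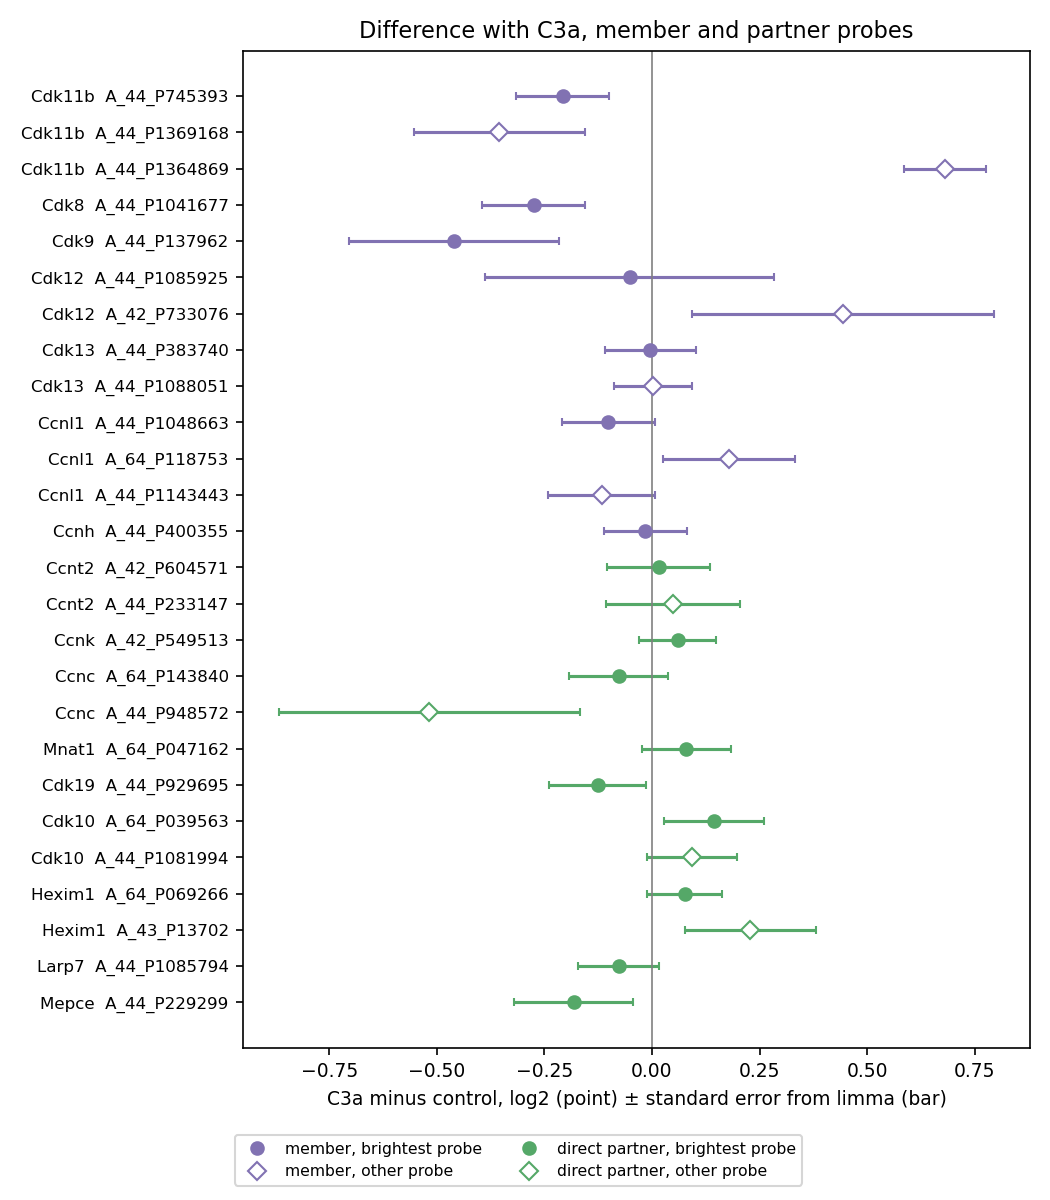
Difference with C3a for every kept probe of the members (purple) and of their direct partners (green). The x axis is C3a minus control in log2, points are filled for the brightest probe of a gene and open for its other probes, and bars are the standard error from limma (n = 3 per group). The 3 Cdk11b probes at the top lie at -0.21, -0.35 and 0.68, and the brightest probes of the partners lie between -0.18 and 0.14.

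Of 36 genes for elongation factors, the Mediator kinase module and TFIIH, 29 had a probe and 27 a kept brightest probe. By limma 0 of 27 passed the adjusted threshold, and at an unadjusted p under 0.05 1 was higher and 1 was lower, against 5.82% of all kept probes in either direction, with a median difference of 0.048. Both were named after their values were seen. Mllt3, a subunit of the super elongation complex, differed by 0.29, with its C3a arrays above the controls. Aff1, the scaffold of that complex, differed by -0.62, with its C3a arrays below them, but its probe was not well above background on control replicate 1, and its other probe differed by -0.017. Of the 27 genes, 3 lay above without overlap and 1 below, against 8.04% and 4.46% of the kept probes. Supt5h, the elongation factor that Cdk9 phosphorylates, differed by -0.35 with overlap and passed the unadjusted threshold with the replicate block but not without it. With the block, 1 of the 27 genes was higher and 2 were lower at that threshold, against 13.6% of the kept probes in either direction.

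Of 23 genes for splicing kinases and SR proteins, 21 had a kept probe. By limma 0 of 21 passed the adjusted or the unadjusted threshold. With the replicate block 1 of 21, Clk3, passed the unadjusted one, against 13.6% of the kept probes. The median difference was -0.057, with 8 above 0 and 13 below. The C3a array was lower in all 3 pairs for 9 of the 21 genes, against 13.7% of the kept probes, and higher in all 3 for 4, against 25.2%. Clk1, Clk2, Clk3 and Clk4, kinases that phosphorylate SR proteins and were named after their values were seen, were among the 9, with differences of -0.062, -0.15, -0.24 and -0.14. Of 12 cell-cycle cyclins and kinases, 0 passed the adjusted or the unadjusted threshold of limma, the median difference was -0.024, and 4 lay above 0 and 8 below.

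Settings that shift whole arrays moved the values of all probes alike. Without normalization the median difference of all kept probes was -0.28 and with spike-in scaling -0.40, against 0.048 with the 75th percentile. The third Cdk11b probe differed by 0.35 and 0.23 in these settings, and the first by -0.53 and -0.66. Relative to the median of all kept probes, the third probe lay between 0.63 and 0.65 under the 7 scalings, the first between -0.26 and -0.24, and the second between -0.40 and -0.38. Cdk8 lay between -0.32 and -0.29 and Cdk9 between -0.51 and -0.46 on this scale. A shift of a whole array cannot change a value on this scale, so these narrow ranges were largely fixed in advance. Only quantile normalization and cyclic loess could change them.

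**Figure D4:**
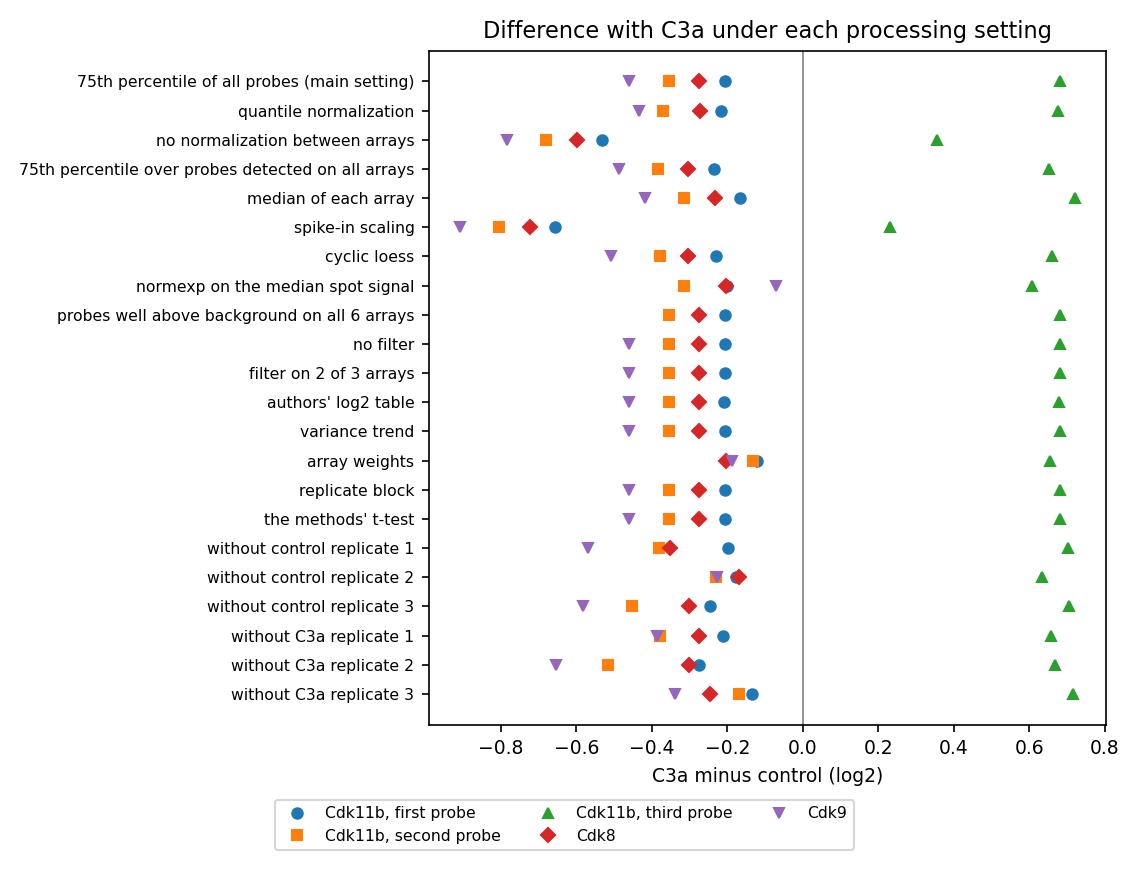
Difference with C3a for the 3 Cdk11b probes, Cdk8 and Cdk9 under each processing setting (y axis); the x axis is C3a minus control in log2. Cdk9 has no point where probes had to be well above background on all 6 arrays. The third Cdk11b probe lies between 0.23 and 0.72 and the second Cdk11b probe between -0.80 and -0.13 in every setting shown.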

How the data were processed

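RNA from 6 NRVC samples was measured on 1-colour Agilent arrays. Spot intensities were deposited as Agilent Feature Extraction 11.5.1.1 (per the labels) wrote them, background-subtracted but without scaling between arrays. A log2 table that the authors deposited holds intensities scaled to each array's 75th percentile (r of at least 0.99999 with the scanner values on each array) and was used as an alternative.

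Control spots and outlier-flagged spots were left out, spots of one probe were averaged, and each array's 75th percentile was subtracted on the log2 scale. A probe was well above background where at least 50% of its spots were. Of 45572 probes, 23438 met this in every array of a group and were kept. The lower share on control replicate 1 keeps dim probes through the C3a group, with 17519 probes passing in controls and 23425 with C3a. No spot was saturated, and the number of arrays limits the precision.

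Accessions of 21109 of 45598 probes (46.3%) matched the GRCr8 gene table, which was used for names only. A gene was represented by its brightest probe. C3a was compared with control in limma 3.58.1 (R 4.3.3, two-sided, Benjamini-Hochberg over kept probes), tested on simulated data. Figures were drawn with matplotlib 3.10.9.

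The members and gene lists were chosen with earlier results of these data known. Named are the members, their direct partners, the 5 genes most like Cdk11b and any list gene past the adjusted threshold, of which there were 0. The results of 2 genes under this rule are not reported here. Other genes named were chosen after their values were seen. Replicate numbers were checked for pairing. Deviations from the group means correlated at 0.28 to 0.32 between arrays of equal number and at -0.26 to -0.093 otherwise. Deviations sum to 0 within a group, so positive values at equal number force negative ones elsewhere, which add no support. The numbers were taken to pair the samples on the positive values and not on the records. The number is also the position along the slide. Alternatives were other scalings, background correction, filters, models, the methods' t-test and each array left out.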

Additional observations from a re-analysis of the deposited data

How the results depend on the processing

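At an adjusted p under 0.05 the count of kept probes was 0 in all settings except 2. It was 16 (1 higher, 15 lower) with spike-in scaling and 4 without normalization. Of the 6 members besides Cdk11b, 0 passed in any of 21 alternatives. Cdk9 and Cdk12 were not tested where all 6 arrays had to be well above background. At an unadjusted p under 0.05 the count of 1364 probes became 2599 without normalization and 3198 with the replicate block, and lay between 709 and 2139 when each array was left out. The share of higher probes among them was 57.4%, and 1.58% without normalization, 0.526% with spike-in scaling, 43.8% with the percentile over probes detected on all arrays, 81.4% with the median of each array, 43.0% with cyclic loess, 36.7% where all 6 arrays had to be well above background, 34.7% without a filter, 46.9% with a variance trend and 67.9% with the methods' t-test. Leaving out each array gave shares between 49.7% and 67.5%.

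The count of members past the unadjusted threshold, 0 of 6, became 2 without normalization and with the replicate block (Cdk8 and Cdk9 in both), 1 with spike-in scaling (Cdk9), 1 with cyclic loess and 1 where all 6 arrays had to be well above background (Cdk8 in both), and lay between 0 and 1 when each array was left out. Cdk9 and Cdk12 did not pass the filter on all 6 arrays, so they are missing from the count there. The replicate block changed no adjusted call. Cdk12 turned to 0.20 as the mean over its kept probes and lay between -0.35 and 0.17 with single arrays left out. Cdk13 turned to 0.0040 with quantile normalization, 0.037 with the median of each array and 0.038 with array weights, and lay between -0.062 and 0.050 with arrays left out. Ccnh turned to 0.025 with the median of each array and 0.018 with array weights, and lay between -0.067 and 0.033 with arrays left out. The cause was not tested. Cdk9 stayed below 0 in 20 of 20 alternatives, from -0.91 to -0.073, and Ccnl1 in 22 of 22. These counts include filters and error models that leave the difference unchanged, so part of each was fixed in advance.

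The first Cdk11b probe was below 0 in 21 of 22 alternatives, the exception being the mean over the 3 probes (0.039). The second probe was below 0 and the third above 0 in 21 of 21 each. Filters and error models leave these differences unchanged too, so part of each count was fixed in advance. Leaving out each array gave -0.28 to -0.14, -0.52 to -0.17 and 0.63 to 0.72 for the 3 probes in this order. The limits are 3 arrays per group on 1 slide, the higher background on control replicate 1 for the dim probes of Cdk9 and Cdk12, and members with a single probe.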
